A study of Mus musculus with 15 samples.

Results

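A set of 34 genes that mark T cells and natural killer (NK) cells was followed through mouse kidney and lung after chemical injury and treatment with an antibody against leptin, the hormone of fat cells. The 34 genes were taken by symbol, from a list of markers drawn up with earlier results of these data known, and all 34 were found among the 56748 genes of the deposited count table. They are the T cell receptor and CD3 chains (7 genes), coreceptors and other surface proteins of T cells (8), costimulatory and checkpoint receptors (3), kinases and the adaptor next to the receptor (3), lineage transcription factors (4), cytotoxic effectors with interferon gamma (6) and NK receptors (3). RNA of whole organs was sequenced in 5 groups of 3 libraries, all from male C57Bl/6 mice of wild-type genotype. WTK kidneys came from mice given vehicle, for which the labels name no antibody. IgGK and LepK kidneys came from mice given folic acid once, at 200 mg/kg, which injures the tubules, and then either control IgG (IgGK) or LepAb, an antibody that neutralizes leptin (LepK). IgGL and LepL lungs came from mice given bleomycin once, at 1.5 units/kg, which injures the alveoli, and then either control IgG (IgGL) or LepAb (LepL). The study's methods give 10 mg/kg of antibody every other day from day 1, for 21 days in the kidney model with euthanasia on day 28 and for 14 days in the lung model with euthanasia on day 14. The mice were 10 to 12 weeks old in the kidney model and 12 weeks old in the lung model. LepAb is a human antibody, and lungs without bleomycin were not analysed here.

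T cells recognize peptides on other cells through a receptor whose alpha and beta chains (*Trac*, *Trbc1*, *Trbc2*) sit in the membrane with the CD3 chains, which carry the signal inward to the kinases LCK and ZAP-70 and the adaptor LAT. CD4 marks helper and regulatory T cells and CD8 the cytotoxic ones, while FOXP3, GATA-3 and T-bet are transcription factors of regulatory, type 2 and type 1 cells. NK cells have no rearranged receptor and kill, like CD8 T cells, with perforin and granzymes, under control of receptors such as NKp46 (*Ncr1*) and NK1.1 (*Klrb1c*). In injured kidney and lung both cell types are known to enter the tissue together with macrophages, and the interleukin 7 receptor (*Il7r*) keeps naive and memory T cells and innate lymphoid cells alive. Several of these genes are also transcribed elsewhere: *Thy1* in fibroblasts, and *Gata3* in the distal nephron and collecting duct. In whole-organ RNA, fewer cells of a type and less RNA per cell cannot be told apart.

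The 300 bases around the start of transcription (250 before it and 50 after it) are shown for 6 members that the results turn on, the 3 CD3 genes next to each other on chromosome 9 and *Il7r*, *Gzma* and *Klrb1c*. They come from RefSeq (GRCm38.p6), which held 24 of the 34 members, and are written 5′ to 3′ along the gene's strand. Capitals mark matches, on either strand, to short motifs of factors that act in lymphocytes. The letters searched for were AGGAAG for the ETS family and TGTGGT for the RUNX family. Those of TCF/LEF factors were CTTTGA, and those of GATA factors AGATAA. The T-box motif was written GGTGTGA and the motif of E proteins CAGCTG. The longest run of capitals in *Klrb1c* holds 2 overlapping ETS matches.
Cd3d, chr9:44981536-44981835, plus strand: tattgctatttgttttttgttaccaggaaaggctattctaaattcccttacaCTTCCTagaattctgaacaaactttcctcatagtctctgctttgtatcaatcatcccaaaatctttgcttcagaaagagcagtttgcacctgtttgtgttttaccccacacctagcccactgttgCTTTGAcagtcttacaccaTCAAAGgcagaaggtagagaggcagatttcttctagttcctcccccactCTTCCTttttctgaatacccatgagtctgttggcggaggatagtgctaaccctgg
Cd3g, chr9:44980382-44980681, minus strand: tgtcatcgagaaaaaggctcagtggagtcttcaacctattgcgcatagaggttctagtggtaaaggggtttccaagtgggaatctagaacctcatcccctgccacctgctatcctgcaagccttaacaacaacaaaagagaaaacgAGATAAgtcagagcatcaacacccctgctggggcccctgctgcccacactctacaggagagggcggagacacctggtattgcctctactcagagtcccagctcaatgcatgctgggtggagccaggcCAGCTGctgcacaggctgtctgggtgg
Cd3e, chr9:45009562-45009861, minus strand: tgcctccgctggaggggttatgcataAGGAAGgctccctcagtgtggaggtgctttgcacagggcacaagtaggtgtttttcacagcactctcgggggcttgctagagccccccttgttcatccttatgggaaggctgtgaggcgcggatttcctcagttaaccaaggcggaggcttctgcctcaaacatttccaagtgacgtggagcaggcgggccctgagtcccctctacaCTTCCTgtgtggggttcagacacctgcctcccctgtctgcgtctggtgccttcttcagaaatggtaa
Il7r, chr15:9529827-9530126, minus strand: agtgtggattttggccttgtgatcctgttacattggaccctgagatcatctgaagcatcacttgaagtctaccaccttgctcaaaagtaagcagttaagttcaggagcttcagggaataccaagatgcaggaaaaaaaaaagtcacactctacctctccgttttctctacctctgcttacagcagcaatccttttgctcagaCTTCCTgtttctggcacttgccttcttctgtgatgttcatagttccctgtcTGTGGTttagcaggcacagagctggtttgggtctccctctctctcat
Gzma, chr13:113100932-113101231, minus strand: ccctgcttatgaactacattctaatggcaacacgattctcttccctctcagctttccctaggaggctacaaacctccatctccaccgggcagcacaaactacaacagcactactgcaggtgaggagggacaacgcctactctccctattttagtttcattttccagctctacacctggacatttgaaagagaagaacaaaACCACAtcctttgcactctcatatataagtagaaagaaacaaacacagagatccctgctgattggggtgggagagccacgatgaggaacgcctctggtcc
Klrb1c, chr6:128788592-128788891, minus strand: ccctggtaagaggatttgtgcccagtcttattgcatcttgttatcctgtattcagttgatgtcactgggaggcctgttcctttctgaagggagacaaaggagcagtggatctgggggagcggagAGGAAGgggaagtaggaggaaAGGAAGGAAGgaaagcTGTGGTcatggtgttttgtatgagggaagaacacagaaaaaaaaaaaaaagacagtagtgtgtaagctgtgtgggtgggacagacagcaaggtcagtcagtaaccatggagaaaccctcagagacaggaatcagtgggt

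Over the 24 member promoters, the RUNX letters stood in 10 (41.7%, against 16.8% of 32851 mouse promoters of this length), and those of *Gzma*, *Klrb1c* and *Il7r* were among them. The ETS letters stood in 13 (54.2%, against 35.4%), including *Cd3d*, *Cd3e*, *Il7r* and *Klrb1c*. TCF/LEF and E protein letters were each found in 6 (25.0%, against 16.0% and 16.3% of all promoters). T-box letters were found in 2 (8.33%, against 3.98%) and GATA letters in 1, *Cd3g* (4.17%, against 11.2%). *Cd3d* and *Cd3g*, whose starts lie close together on opposite strands, shared none of the 6 motifs within these windows. These are matches of letters only, and no binding was measured.

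The 15 libraries held 25913969 to 38924788 counted reads each, so that 1 read equals 0.0257 to 0.0386 CPM, the count scaled to a common library total. Levels are given as CPM normalized by TMM (edgeR's scaling factors) within each organ, which makes them comparable between the libraries of an organ and not between genes. For levels between genes, the deposited FPKM values, which are per kilobase of gene length, were used. Replicates of every group differed by more than sampling noise (chi-square 6.73 to 87.4 per gene). The labels do not say that each library is a separate mouse. The study's figure legends give 3 mice per group for the lung data, and 3 per group for the kidney data without naming the unit. The p-values measure the spread between these libraries. *Cd3e*, *Cd4* and *Cd8a*, which define T cells, were counted in every library. IgGL replicate 1 stood apart from IgGL replicates 2 and 3: 30 of the 34 members were highest in it among the IgGL libraries, and its summed level of 8 B cell markers was 134.7 CPM against 38.5 and 61.4 CPM. Lung counts are therefore given with and without it, as are the estimates of the members and the counts of the lists whose calls change. It was picked out by the levels of the members themselves and of the B cell markers, so leaving it out favours a rise of both in LepL. Calls made without it describe how far the result rests on 1 library and are no separate support. LepL replicate 1 was likewise the highest of its group for the T cell receptor and CD3 chains (71.8 CPM, against 41.6 and 43.6) and for the B cell markers (233.4 CPM, against 100.8 and 136.2).

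Per kilobase, the chains of the T cell receptor and *Thy1* were the most abundant members in IgGK kidneys, where *Trbc2* reached 14.1 ± 2.202 FPKM (mean ± SD, n = 3), *Thy1* 10.7 ± 1.56, *Trbc1* 10.02 ± 2.59 and *Trac* 6.59 ± 1.24 FPKM. In LepK kidneys *Trbc2*, *Trbc1* and *Trac* led, and *Gata3* (5.32 ± 0.896 FPKM) and *Thy1* (4.89 ± 1.34 FPKM) did not differ beyond their spread. *Trbc1* and *Trbc2*, next to each other on chromosome 6, are nearly identical in their coding sequence, so the share of reads between them is uncertain. *Cd4* at 1.86 ± 0.4703 FPKM and *Cd8a* at 1.50 ± 0.604 FPKM lay within an SD of each other in IgGK. At the low end were *Ncr1* at 0.0985 ± 0.116, *Eomes* at 0.128 ± 0.0707 and *Klrb1c* at 0.155 ± 0.0613 FPKM, which did not differ beyond their spread. The order was another one in LepL lungs, where *Gzma* at 8.34 ± 2.66 FPKM stood with *Trbc2* (11.8 ± 4.00) and *Trbc1* (8.46 ± 1.55), within their spread, while it was 0.247 ± 0.206 FPKM in LepK kidneys. *Gata3* was the 1 member with more than 3 FPKM in uninjured kidney (3.35 ± 0.319 FPKM in WTK), above its level in lung (0.517 ± 0.171 in IgGL and 1.28 ± 0.305 in LepL).

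**Figure D1:**
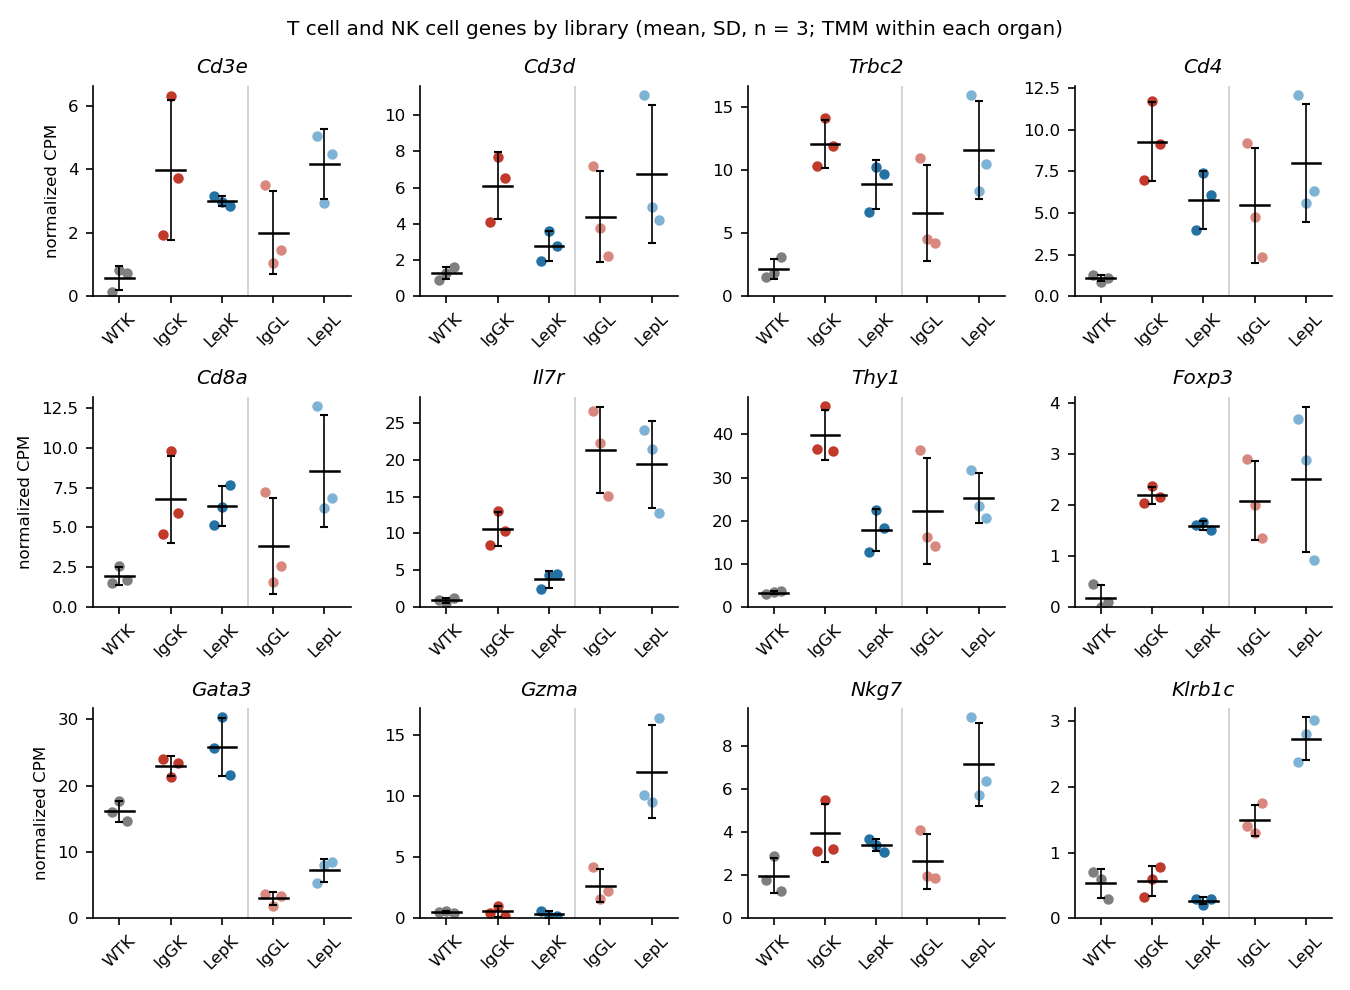
Normalized CPM of 12 members in each of the 15 libraries (points), with the group mean (line) and SD (bar, n = 3); kidney groups stand left and lung groups right of the grey line, and each organ was normalized on its own. Most T cell genes were lowest in WTK and spread widely in IgGL. *Cd3d*, *Trbc2*, *Il7r*, *Thy1*, *Foxp3* and *Klrb1c* were lower in every LepK than in every IgGK library, as were 19.5% of all genes. *Gata3*, *Gzma*, *Nkg7* and *Klrb1c* were higher in every LepL than in every IgGL library, as were 16% of all genes.

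The first comparison asked which of these genes differ between kidneys injured with folic acid and treated with control IgG, and kidneys given vehicle. All receptor, surface, costimulatory and signaling genes of T cells rose, and with them 25 of the 34 members in all (73.5%), by 1.42-fold (*Gata3*) to 11.7-fold (*Thy1*), and in 27 members (79.4%) every IgGK library exceeded every WTK library. Most of the cytotoxic and NK genes did not pass the test. Of all 19593 genes tested, 37.3% were called in this comparison (21.7% higher, 15.6% lower), and 32.5% were higher in every IgGK library. The median log2 fold change was 1.94 over the members and 0.041 over all genes. No member was called lower by edgeR or by DESeq2, and none had a lower level at an unadjusted p under 0.05, which 58% of all genes reached in either direction. Here and below, called genes had a log2 fold change beyond ±0.5 together with a p below 0.05 after Benjamini-Hochberg adjustment over all genes in edgeR's quasi-likelihood test.

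All 7 T cell receptor and CD3 genes rose, with log2 fold changes of 1.12 to 2.82 and adjusted p of 4.93e-06 to 0.00892. *Cd3d*, *Cd3e* and *Cd3g* encode the CD3 delta, epsilon and gamma chains and lie side by side on chromosome 9 (GRCm39, chr9:44880870-44920925). *Cd3e* measured 0.125, 0.829 and 0.721 CPM in the WTK libraries (replicates 1, 2 and 3, the order used throughout), 1.91, 6.32 and 3.73 in IgGK and 3.16, 2.98 and 2.84 in LepK. All IgGK values lay above all WTK values, and the LepK values lay among the IgGK values and close to each other (log2 fold change 2.82 ± 0.53, adjusted p = 0.000605). *Cd3d* measured 0.914, 1.303 and 1.62 CPM in WTK, 4.09, 7.69 and 6.53 in IgGK and 1.94, 3.59 and 2.77 in LepK. The 3 groups of *Cd3d* did not overlap (log2 fold change 2.25 ± 0.33, adjusted p = 8.13e-05). *Cd3g* measured 0.955, 1.34 and 1.77 CPM in WTK, 5.64, 11.0 and 7.37 in IgGK and 3.59, 6.57 and 5.61 in LepK, with LepK partly within the IgGK range (2.55 ± 0.33). *Cd247*, the zeta chain that carries most of the signaling motifs, measured 1.45, 1.698 and 0.974 CPM in WTK, 2.54, 3.37 and 3.04 in IgGK and 1.81, 3.39 and 2.47 in LepK. It rose least of the chains (1.12 ± 0.31), and it overlaps *Pou2f1* in part on the other strand, whose reads cannot be told apart in these unstranded libraries.

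The constant regions of the receptor chains themselves moved alike. *Trac*, the alpha constant region, measured 1.87, 2.13 and 2.52 CPM in WTK, 6.20, 9.09 and 7.66 in IgGK and 5.04, 7.38 and 6.83 in LepK. *Trbc1* measured 1.41, 2.92 and 1.55, 7.55, 12.1 and 8.33 and 6.39, 8.31 and 6.68 CPM in the same 3 groups. *Trbc2* measured 1.54, 1.86 and 3.101, 10.3, 14.1 and 11.9 and 6.68, 10.3 and 9.67 CPM. For each of the 3, all libraries of both injured groups exceeded all WTK libraries, by 1.81 ± 0.22, 2.25 ± 0.28 and 2.48 ± 0.26 (log2 ± SE, IgGK against WTK).

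All 8 coreceptor and surface genes rose (log2 fold change 1.80 to 3.55, adjusted p 6.16e-08 to 0.00116). *Cd4*, the coreceptor of helper cells, measured 1.25, 0.869 and 1.12 CPM in WTK, 6.99, 11.7 and 9.16 in IgGK and 3.95, 7.41 and 6.06 in LepK. It rose 8.604-fold from WTK to IgGK (log2 fold change 3.11 ± 0.29, adjusted p = 2.07e-06). *Cd8a*, the alpha chain of the coreceptor of cytotoxic cells, measured 1.54, 2.57 and 1.73 CPM in WTK, 4.58, 9.83 and 5.897 in IgGK and 5.14, 6.27 and 7.64 in LepK. It rose 3.48-fold (log2 fold change 1.80 ± 0.31, adjusted p = 0.000289), and its LepK values lay within the IgGK range. *Cd8b1*, the beta chain, measured 1.16, 0.948 and 0.793 CPM in WTK, 3.23, 4.23 and 3.35 in IgGK and 1.91, 2.51 and 2.88 in LepK.

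*Cd2*, an adhesion receptor shared by T and NK cells, measured 0.332, 0.7897 and 0.793 CPM in WTK, 2.31, 4.06 and 4.89 in IgGK and 2.897, 3.52 and 3.21 in LepK. *Cd5*, which dampens receptor signals, measured 0.249, 0.711 and 1.298, 3.36, 5.63 and 3.497 and 3.42, 4.29 and 1.55 CPM, and *Cd6*, its neighbour on chromosome 19, 0.997, 1.38 and 0.793, 4.58, 7.46 and 4.71 and 2.96, 5.26 and 3.58 CPM. In these genes the LepK libraries exceeded the WTK libraries and overlapped the IgGK libraries. *Thy1* (GRCm39, chr9:43954681-43959876), a surface glycoprotein of T cells and of fibroblasts, measured 2.95, 3.48 and 3.75 CPM in WTK, 36.7, 46.5 and 36.2 in IgGK and 12.7, 22.5 and 18.4 in LepK. *Il7r* (GRCm39, chr15:9505874-9530262) measured 0.997, 0.592 and 1.19 CPM in WTK, 8.41, 13.1 and 10.4 in IgGK and 2.403, 4.36 and 4.54 in LepK. These 2 genes showed the same order of groups with no overlap, lowest in WTK, between in LepK and highest in IgGK, and rose 11.7-fold and 11.4-fold from WTK to IgGK. All 8 fibroblast markers, among them collagen genes, rose in the same libraries, where their summed level was 185.0 to 246.0 CPM in WTK and 1418 to 1610 CPM in IgGK, and their part in the *Thy1* level was not tested.

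The costimulatory receptors *Cd28* and *Icos* and the inhibitory receptor *Ctla4*, neighbours on chromosome 1, all rose. *Cd28* measured 0.457, 1.501 and 0.469 CPM in WTK, 1.78, 3.401 and 2.197 in IgGK and 1.45, 1.37 and 1.698 in LepK. *Icos* measured 0.540, 0.671 and 0.649, 2.21, 2.46 and 2.37 and 1.68, 2.62 and 2.07 CPM. *Ctla4*, which regulatory T cells carry at high levels, measured 0.0415, 0.316 and 0.216, 0.956, 2.83 and 2.28 and 0.988, 1.51 and 0.9599 CPM. WTK levels of *Ctla4* rested on 1 to 8 reads per library, and it rose 10.3-fold (log2 fold change 3.36 ± 0.59, adjusted p = 0.000371).

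The signaling genes followed the receptor chains. *Lck*, the kinase bound to CD4 and CD8, measured 1.99, 3.198 and 3.101 CPM in WTK, 10.8, 16.2 and 12.2 in IgGK and 8.89, 9.22 and 8.46 in LepK. *Zap70*, the kinase that docks on the CD3 chains, measured 0.166, 1.54 and 0.613, 4.72, 4.94 and 6.07 and 3.26, 4.26 and 4.36 CPM. *Lat*, its substrate and scaffold, measured 1.495, 3.001 and 2.24, 7.78, 11.4 and 9.37 and 5.63, 6.77 and 8.71 CPM. All 3 rose from WTK to IgGK, by 4.23-fold (*Lat*) to 6.73-fold (*Zap70*). In *Lck* and *Zap70* all LepK libraries lay below all IgGK libraries, although neither passed the test there.

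Of the 4 transcription factors, *Foxp3* and *Gata3* rose. *Foxp3* was counted with 11, 0 and 3 reads in the WTK libraries and measured 0.457, 0 and 0.108 CPM in WTK, 2.05, 2.37 and 2.17 in IgGK and 1.61, 1.68 and 1.51 in LepK (log2 fold change 3.55 ± 0.64, adjusted p = 0.000445). It overlaps *Ppp1r3f*, *Flicr*, *Ccdc22* and *Gm36995*. *Gata3* measured 16.03, 17.7 and 14.6 CPM in WTK, 24.1, 21.2 and 23.4 in IgGK and 25.6, 30.3 and 21.6 in LepK. Its rise was the smallest among the called members (log2 fold change 0.51 ± 0.12, adjusted p = 0.00363) and fell under the threshold when WTK replicate 3, IgGK replicate 1 or IgGK replicate 3 was left out. The summed level of 10 distal nephron and collecting duct markers was 3210 to 3395 CPM in WTK, 2280 to 2608 in IgGK and 3296 to 3617 in LepK, and their part in the *Gata3* level was not tested. *Tbx21*, which encodes T-bet, and *Eomes*, its relative in NK and memory CD8 cells, had 3 to 48 and 5 to 32 reads per kidney library and were not called (log2 fold change 1.34 ± 0.55, adjusted p = 0.0578, and 0.91 ± 0.59 with adjusted p = 0.220).

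Among the 6 cytotoxic and interferon genes, *Nkg7* rose and the others did not pass the test. *Nkg7*, a membrane protein of cytotoxic granules, measured 1.79, 2.88 and 1.26 CPM in WTK, 3.13, 5.52 and 3.24 in IgGK and 3.69, 3.42 and 3.101 in LepK. Its call (log2 fold change 1.01 ± 0.32, adjusted p = 0.0192) was lost in 3 of 15 alternative settings. Of the 6 fits without 1 library, 3 kept it (adjusted p 0.00485 to 0.103 over the 6, in edgeR's test). *Gzma*, granzyme A, measured 0.540, 0.553 and 0.397 CPM in WTK, 0.462, 1.03 and 0.145 in IgGK and 0.593, 0.168 and 0.148 in LepK, so its kidney groups overlapped throughout, with 4 to 36 reads per library (0.14 ± 0.71). *Prf1*, perforin, was within 0.00 ± 0.66 of no difference, *Gzmb* had 0.85 ± 0.79 and *Ifng* -0.09 ± 0.88. *Gzmk*, granzyme K, had 0, 10 and 2 reads in WTK and 16, 15 and 23 in IgGK (log2 fold change 1.77 ± 0.89, adjusted p = 0.116), and it overlaps *Esm1*. At 0 to 37 reads per library for *Gzmb*, *Prf1* and *Ifng* in WTK and IgGK, a change of 2-fold was smaller than 2 standard errors.

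Of the NK receptors, *Klrk1*, the activating receptor NKG2D of NK and CD8 T cells, rose 3.895-fold, from 0.789, 1.11 and 0.938 CPM in WTK to 2.51, 4.97 and 3.58 in IgGK, and measured 3.36, 2.95 and 3.18 in LepK. *Klrb1c* (GRCm39, chr6:128755448-128766178), the NK1.1 antigen, measured 0.706, 0.592 and 0.289 CPM in WTK, 0.3298, 0.6002 and 0.7804 in IgGK and 0.296, 0.201 and 0.295 in LepK. All its LepK values lay below all its IgGK values, while WTK and IgGK overlapped. *Ncr1*, found mainly on NK cells, had 0 to 15 reads per kidney library and was not called in any kidney comparison.

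**Figure D2:**
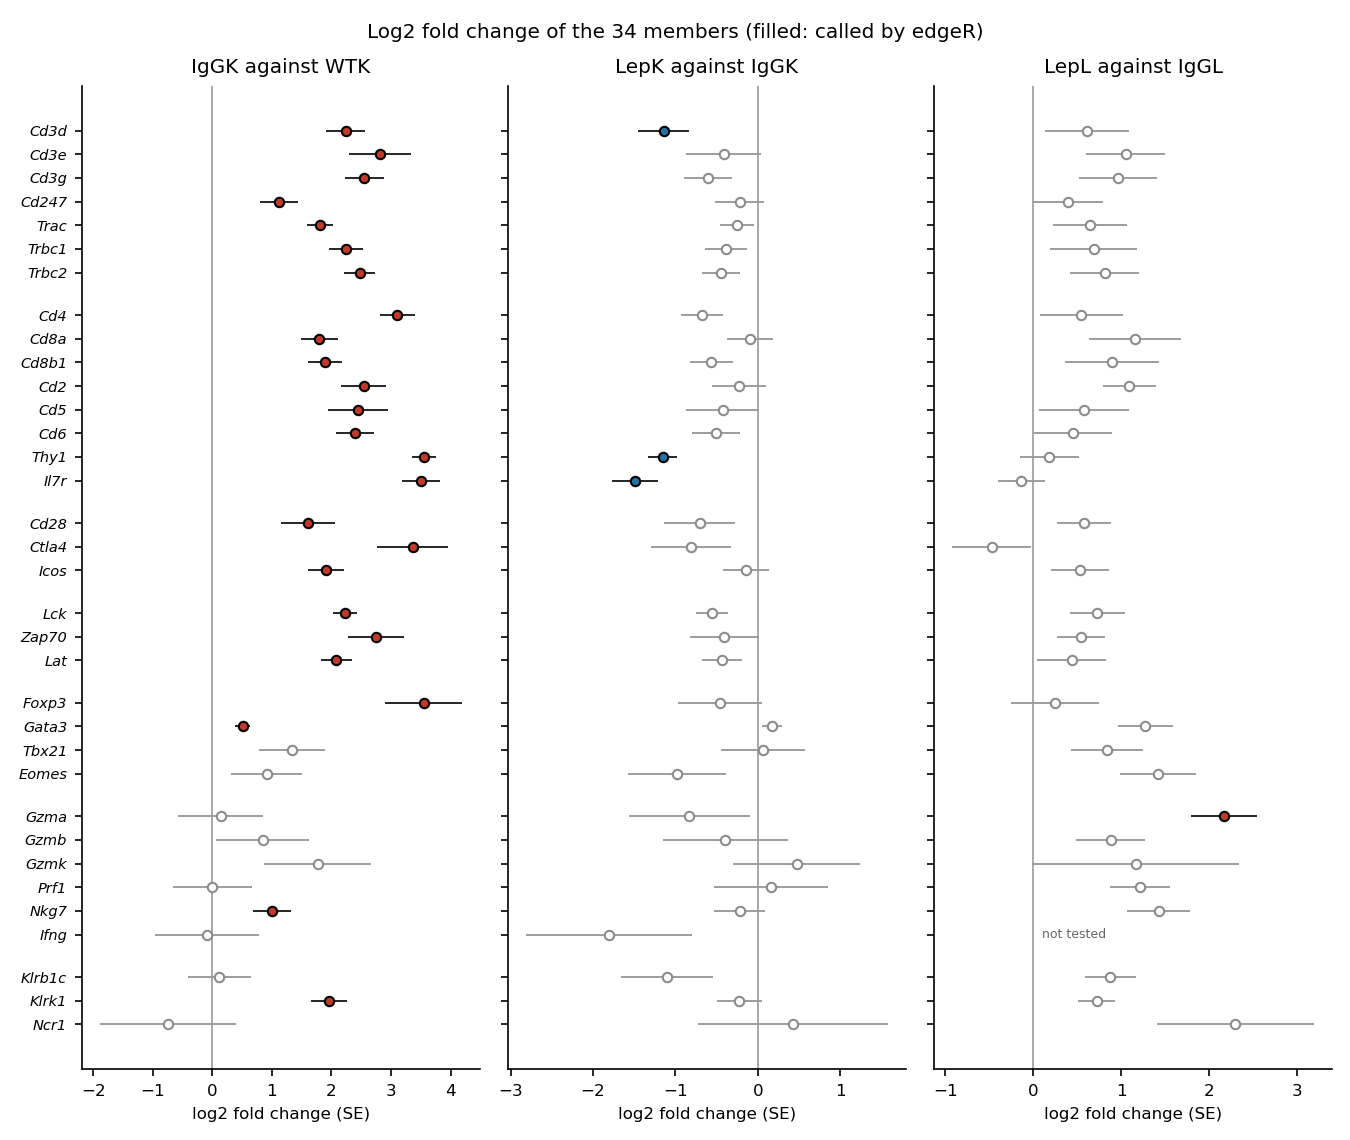
Log2 fold change of each of the 34 members with its standard error, in IgGK against WTK, LepK against IgGK and LepL against IgGL; members are ordered by role, filled points were called by edgeR, and *Ifng* was not tested in lung. Filled points cover the receptor, surface, costimulation and signaling genes in the first panel (25 in all), 3 genes in the second and *Gzma* in the third.

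The second comparison asked which of these genes differ between injured kidneys treated with LepAb and with control IgG. *Il7r*, *Thy1* and *Cd3d* fell, 3 of the 34 members (8.82%) where 5.99% of all genes tested were called lower (10.4% called in all). Levels were lower in every LepK library than in every IgGK library for 10 members (29.4%), against 19.5% of all genes. Their fold changes were negative for 29 members, with a median of -0.43 on the log2 scale, against -0.012 over all genes, of which 48.7% were positive. Without IgGK replicate 2 the median was -0.20. No member was called higher by edgeR or DESeq2, and none was higher at an unadjusted p under 0.05. At that p, which 32.9% of all genes reached in either direction, 5 members were lower, *Il7r*, *Thy1*, *Cd3d*, *Lck* and *Cd4*.

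*Il7r* fell most, to 0.355 of its IgGK level (log2 fold change -1.50 ± 0.28, adjusted p = 0.00297). With 8.41 to 13.1 CPM in IgGK and 2.40 to 4.54 in LepK, the groups lay apart, and LepK stayed above WTK (0.592 to 1.19). *Thy1* fell to 0.449 of its IgGK level (log2 fold change -1.16 ± 0.17, adjusted p = 0.000952). Both calls held when any 1 library was left out, with adjusted p up to 0.0154 for *Il7r* and 0.00411 for *Thy1*. *Cd3d* fell to 0.453 (log2 fold change -1.14 ± 0.31, adjusted p = 0.0201), a call that was lost without IgGK replicate 2, IgGK replicate 3, LepK replicate 1 or LepK replicate 3 (adjusted p 0.0557 to 0.0926).

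The neighbours of *Cd3d* in the receptor complex did not pass the test. Their log2 fold changes ran from -0.61 ± 0.29 (*Cd3g*) and -0.45 ± 0.23 (*Trbc2*) to -0.22 ± 0.30 (*Cd247*). *Lck* with log2 fold change -0.56 ± 0.19, adjusted p = 0.0548 and *Cd4* with log2 fold change -0.68 ± 0.25, adjusted p = 0.0783 were near the threshold and were called in 6 and 5 of 15 alternative settings, DESeq2 among them. *Cd8a* differed by -0.10 ± 0.28 and *Icos* by -0.15 ± 0.28. For *Foxp3*, levels of 2.05 to 2.37 CPM in IgGK and 1.51 to 1.68 in LepK did not overlap (log2 fold change -0.45 ± 0.51, adjusted p = 0.588). *Cd28*, *Zap70*, *Cd8b1*, *Trbc2* and *Klrb1c* were also lower in every LepK library without passing the test (adjusted p 0.153 to 0.546). Cytotoxic genes had estimates of either sign, from -1.81 ± 1.01 (*Ifng*) to 0.47 ± 0.77 (*Gzmk*), none of them called. *Gata3* was slightly higher in LepK (0.17 ± 0.12) and not called.

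Against uninjured kidney, LepK shares its libraries with the comparison above, and so does IgGK against WTK. In LepK against WTK, 23 of the 34 members were called higher (15.2% of all genes were) and none lower by edgeR or DESeq2 (7.3% of all genes were called lower by edgeR, 22.5% in all), with a median log2 fold change of 1.69 against 0.031 over all genes. *Il7r* stood 2.01 ± 0.32 above WTK where IgGK stood 3.51 ± 0.32 above it. *Thy1* stood 2.39 ± 0.20 above WTK in LepK and 3.55 ± 0.20 in IgGK. *Cd8a* stood 1.70 ± 0.31 above WTK in LepK and 1.80 ± 0.31 in IgGK. *Cd28* and *Nkg7*, called in IgGK, were not called in LepK (0.90 ± 0.46 and 0.79 ± 0.33).

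Summed by role, the mean of LepK lay between those of WTK and IgGK for every role except the transcription factors, where it was above that of IgGK and the groups overlapped. The T cell receptor and CD3 chains summed to 8.27, 12.1 and 12.3 CPM in WTK, 38.3, 63.6 and 48.6 in IgGK and 28.6, 42.5 and 36.9 in LepK. The mean of LepK was 71.8% of that of IgGK, and 1 LepK library lay within the IgGK range. The coreceptor and surface genes summed to 9.47, 11.3 and 11.5 CPM in WTK, 70.2, 103 and 78.1 in IgGK and 35.4, 56.1 and 47.9 in LepK, where the LepK mean was 55.6% of the IgGK mean and the groups lay apart. Cytotoxic and interferon genes summed to 3.28, 4.897 and 3.07 CPM in WTK, 4.52, 9.29 and 5.32 in IgGK and 5.498, 5.93 and 5.13 in LepK, where IgGK overlapped both other groups and every LepK library exceeded every WTK library.

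Other cell types moved in the same kidneys. All 12 macrophage and monocyte markers rose from WTK to IgGK and 11 of them fell from IgGK to LepK, where their summed level was 43.0% of that of IgGK. All 6 pan-leukocyte genes rose and then fell (54.2%), and all 8 fibroblast markers rose and 7 then fell (44.97%). The 8 B cell markers had 1 called gene in the first comparison and none in the second, and their summed LepK level was 97.0% of that of IgGK. The part of these changes in the member levels was not tested. By library size alone, without TMM, the median of all genes moved to 0.48 in IgGK against WTK and to -0.19 in LepK against IgGK. Then 27 members were called higher in the first comparison, where 39.8% of all genes were, and 5 lower in the second, where 11.2% of all genes were, and the members' medians stood at 1.90 and -0.42 relative to those shifts.

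**Figure D3:**
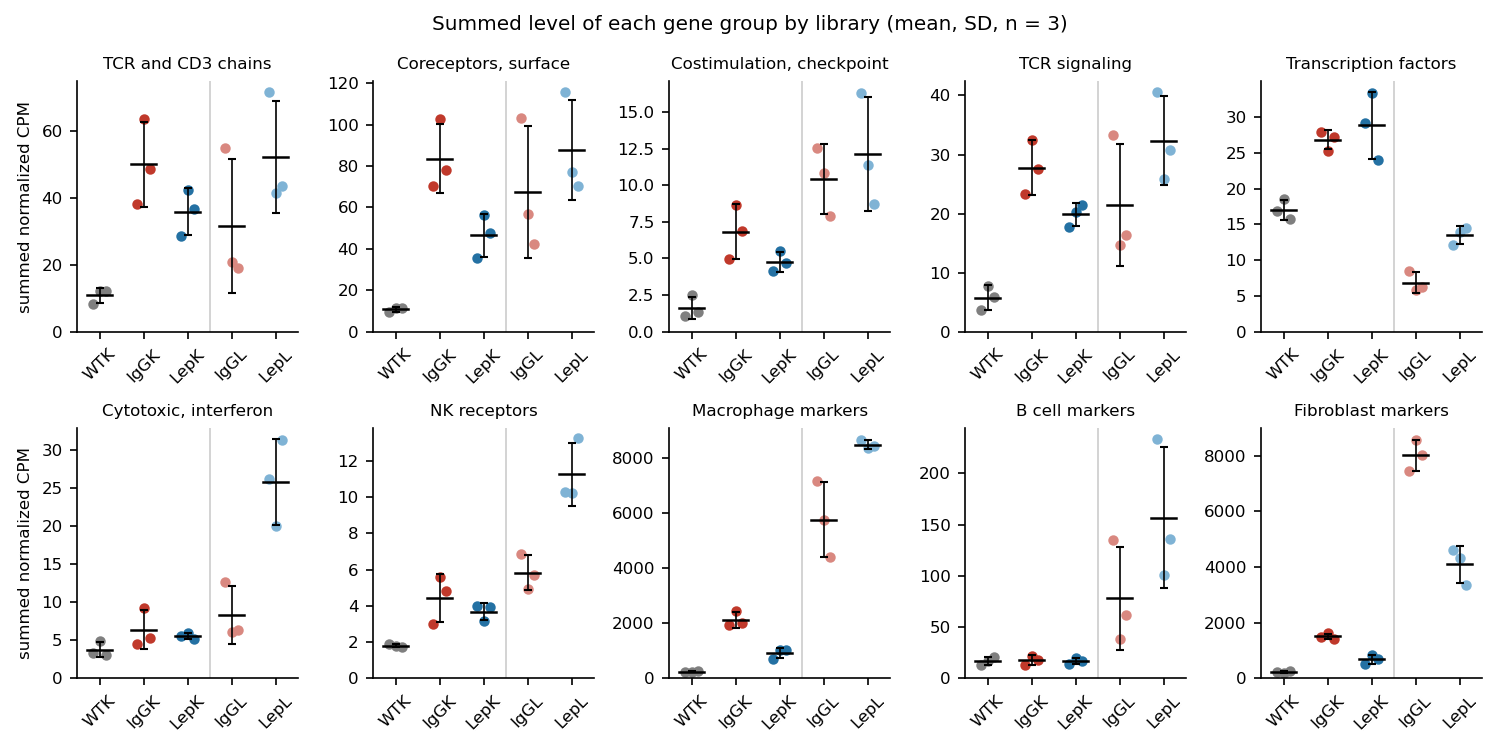
Summed normalized CPM of the members of each role, and of macrophage, B cell and fibroblast markers, in each library (points) with the group mean and SD (n = 3), kidney left and lung right of the grey line. In kidney, the T cell receptor, macrophage and fibroblast sums were lowest in WTK and highest in IgGK on average. In lung, the cytotoxic, NK receptor, transcription factor and macrophage sums were higher in every LepL library than in every IgGL library, and the fibroblast sum was lower. IgGL replicate 1 stood at the top of its group for T and B cell genes.

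When each member was divided by the summed T cell receptor and CD3 chains of its own library, a description with no test, *Il7r* and *Thy1* still separated LepK from IgGK. *Il7r* was 21.98, 20.5 and 21.3% of that sum in IgGK and 8.399, 10.3 and 12.3% in LepK, and it had been 12.1, 4.903 and 9.71% in WTK. *Thy1* was 95.95, 73.1 and 74.5% in IgGK and 44.4, 52.9 and 49.95% in LepK. *Cd4* was 18.3, 18.4 and 18.9% in IgGK and 13.8, 17.4 and 16.4% in LepK. These 3 and *Cd3d* were lower in every LepK library than in every IgGK library on this scale, *Trac* was higher, and the other 29 members overlapped. *Cd3d* and *Trac* are themselves part of the sum, and the share of all genes lying apart on this scale was not counted. *Cd8a* was 11.98, 15.5 and 12.1% in IgGK and 17.95, 14.8 and 20.7% in LepK, and the 2 groups overlapped.

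**Figure D4:**
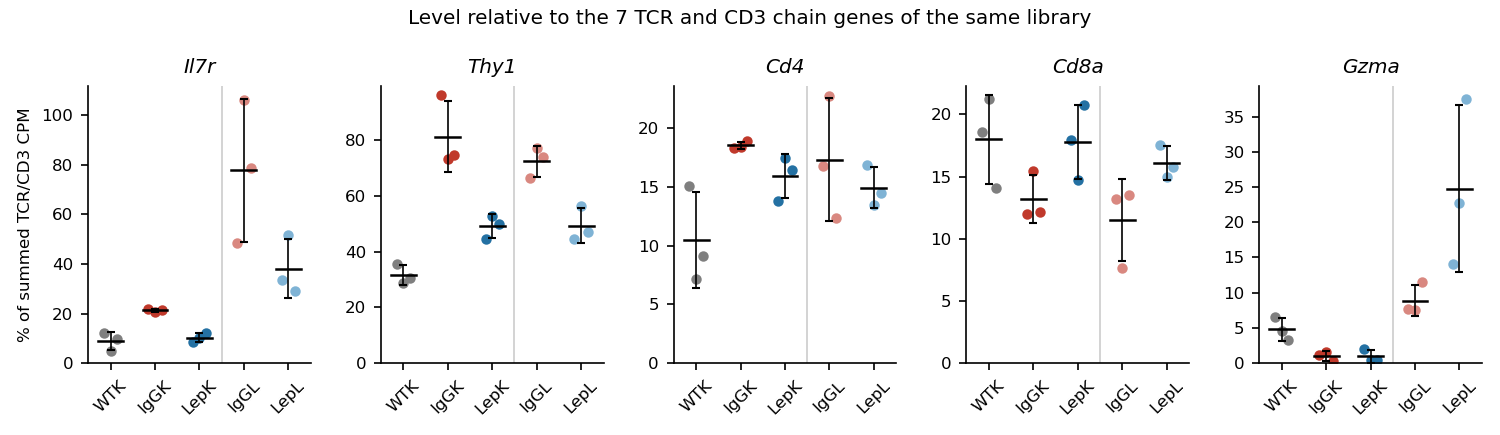
Level of 5 members as a percentage of the summed normalized CPM of the 7 T cell receptor and CD3 genes of the same library (points), with the group mean and SD (n = 3). *Il7r*, *Thy1* and *Cd4* lay lower in LepK than in IgGK, with no overlap, and *Cd8a* and *Gzma* lay higher in LepL than in IgGL.

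Of 40 further genes of T and NK cells that are no members, 36 were tested in kidney. From WTK to IgGK, 26 rose, the largest changes being those of *Cd40lg* (log2 fold change 3.22), the CD40 ligand of helper cells, and *Trdc* (2.94), the constant region of the delta chain. *Bcl11b*, a T lineage factor, fell by 0.87. From IgGK to LepK, 4 fell, led by *Ccr7* (-1.50), the receptor that guides naive and central memory T cells to lymph nodes, and *Tcf7* (-0.95), a factor of naive and memory T cells. *Bcl11b* rose (0.52). The median log2 fold change of the tested genes was 1.76 in the first comparison and -0.55 in the second.

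The third comparison asked which of these genes differ between bleomycin-injured lungs treated with LepAb and with control IgG. *Gzma* rose, and it was the 1 member called of 33 tested (3.03%), where 1.78% of all 19617 genes tested were called higher and 4.14% in all. In 10 members every LepL library exceeded every IgGL library (30.3%, against 16% of all genes), namely *Gzma*, *Gzmb*, *Prf1*, *Nkg7*, *Klrb1c*, *Klrk1*, *Ncr1*, *Gata3*, *Eomes* and *Cd2*. Fold changes were positive for 31 members, with a median of 0.73 on the log2 scale against 0.0033 over all genes, of which 50.3% were positive. No member was called lower by edgeR or DESeq2, or lower at an unadjusted p under 0.05, and 11 were higher at that p, which 27.3% of all genes reached in either direction. DESeq2 called 7 members higher (*Gzma*, *Gata3*, *Cd2*, *Klrk1*, *Nkg7*, *Prf1* and *Eomes*) and 6.47% of all genes.

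Without IgGL replicate 1, 20 members were called higher (9.48% of all genes were, 17.3% called in all) and in 29 of the 33 members tested (87.9%, against 26.9% of all genes) the LepL libraries lay above both other IgGL libraries. The 20 were *Gzma*, *Prf1*, *Nkg7*, *Klrk1*, *Ncr1*, *Gata3*, *Eomes*, all 3 signaling genes, 5 of 7 T cell receptor and CD3 genes, 4 of 8 surface genes and *Icos*. The median over the members was then 1.16. The IgGL group then holds 2 libraries, taken to vary like the LepL group. The library left out was chosen by the levels of these same members, which favours higher estimates in LepL, here and in the lung values without it below. When any of the other 5 lung libraries was left out instead, no member was called, and 0% to 0.107% of all genes were. In those 5 fits 7 to 14 members were at an unadjusted p under 0.05, a share that was not counted over all genes. The T cell receptor and CD3 chains summed to 54.9, 20.99 and 19.2 CPM in IgGL and 71.8, 41.6 and 43.6 in LepL. So 1 IgGL library lay among the LepL libraries while the other two lay below all of them.

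Among the cytotoxic genes, *Gzma* rose and the other 4 tested did not pass the test. *Gzma* (GRCm39, chr13:113230359-113237515), a granzyme of NK and CD8 T cells, measured 4.18, 1.58 and 2.195 CPM in IgGL and 10.1, 9.46 and 16.4 in LepL. All LepL values lay above all IgGL values, a rise of 4.502-fold (log2 fold change 2.17 ± 0.38, adjusted p = 0.0327), and its call was lost without any of the 5 libraries other than IgGL replicate 1 (adjusted p 0.0602 to 0.176). Those 5 fits called 0% to 0.107% of all genes. *Nkg7* measured 4.13, 1.94 and 1.86 CPM in IgGL and 9.37, 5.73 and 6.37 in LepL (log2 fold change 1.43 ± 0.36, adjusted p = 0.0559). *Prf1* measured 2.33, 1.58 and 1.13 and 3.79, 3.01 and 4.94 CPM (log2 fold change 1.21 ± 0.34, adjusted p = 0.0708). *Gzmb*, granzyme B, measured 1.302, 0.861 and 1.03 and 1.63, 1.37 and 2.87 CPM (log2 fold change 0.88 ± 0.39, adjusted p = 0.188). These 3 genes did not overlap between the groups and did not pass the test. When IgGL replicate 1 was left out, *Gzma* rose by 2.67 (adjusted p = 0.00147 in edgeR's test), *Nkg7* by 1.91 (adjusted p = 0.00377) and *Prf1* by 1.52 (adjusted p = 0.0168), while *Gzmb* (1.05, adjusted p = 0.131) and *Gzmk* (4.08, adjusted p = 0.0651) did not pass. *Gzmk* had 25, 0 and 2 reads in IgGL and 34, 4 and 21 in LepL. *Ifng*, interferon gamma, had 2, 2 and 0 reads in IgGL and 8, 12 and 9 in LepL and was below the filter on low counts. Summed, the 6 genes were 12.7, 6.03 and 6.29 CPM in IgGL and 26.3, 20.04 and 31.3 in LepL, 3.10-fold higher on average.

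The 3 NK receptors were each higher in every LepL library than in every IgGL library, and none passed the test. *Klrb1c* measured 1.41, 1.31 and 1.76 CPM in IgGL and 2.38, 2.804 and 3.02 in LepL (log2 fold change 0.88 ± 0.29, adjusted p = 0.0982). *Klrk1* measured 4.54, 3.64 and 3.56 and 6.497, 5.87 and 7.003 CPM (log2 fold change 0.72 ± 0.21, adjusted p = 0.0767). *Ncr1* had 32, 0 and 11 reads in IgGL and 43, 54 and 128 in LepL (log2 fold change 2.30 ± 0.89, adjusted p = 0.142). IgGL replicate 1 did not stand out in *Klrb1c*, where replicate 3 was the highest. Leaving out IgGL replicate 1, *Ncr1* rose by 3.55 (adjusted p = 0.0295 in edgeR's test), an estimate that rests on 0 and 11 reads in IgGL, and *Klrk1* by 0.84 (adjusted p = 0.0305), while *Klrb1c* stayed uncalled (adjusted p = 0.106). Of the further T and NK genes, *Klra8*, the activating NK receptor Ly49H, was the 1 called of 36 tested (log2 fold change 2.70, adjusted p = 0.0431). The median of that list was 0.35, with 9 negative estimates, and its summed LepL level was 0.916 times that of IgGL, where the sum of all members was 1.55 times. In the fit without IgGL replicate 1, 11 of 37 tested were called higher and 2 lower, with a median of 0.69.

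Among transcription factors, *Gata3* measured 3.71, 1.89 and 3.39 CPM in IgGL and 5.26, 7.97 and 8.49 in LepL, and *Eomes* 0.997, 0.444 and 0.565 and 1.83, 1.34 and 2.22 CPM. Both lay apart between the groups and missed the threshold (1.27 ± 0.31 with adjusted p = 0.0539, and 1.42 ± 0.43 with adjusted p = 0.0817). *Gata3* rose by 1.46 (adjusted p = 0.0167) and *Eomes* by 1.83 (adjusted p = 0.0239) in edgeR's test without IgGL replicate 1. *Tbx21* differed by 0.84 ± 0.41. *Foxp3* measured 2.91, 1.999 and 1.36 CPM in IgGL and 3.69, 2.89 and 0.932 in LepL, where LepL replicate 3 was the lowest of all 6 (0.25 ± 0.50).

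The receptor chains had the highest IgGL value in replicate 1 without exception. *Cd3e* measured 3.49, 1.06 and 1.46 CPM in IgGL and 5.06, 2.95 and 4.48 in LepL, *Cd3d* 7.17, 3.78 and 2.23 and 11.1, 4.94 and 4.21, and *Cd3g* 6.57, 2.03 and 2.49 and 9.66, 6.601 and 5.47. *Cd247* measured 8.75, 3.44 and 3.16 CPM in IgGL and 8.78, 5.78 and 5.77 in LepL. In each of the 4, IgGL replicate 1 overlapped the LepL range. *Trac* measured 6.84, 2.89 and 3.13 CPM in IgGL and 10.4, 5.32 and 4.54 in LepL, *Trbc1* 11.1, 3.22 and 2.49 and 10.8, 7.65 and 8.64, and *Trbc2* 11.0, 4.58 and 4.19 and 15.97, 8.35 and 10.5. Over the 7 chains, log2 fold changes were 0.40 (*Cd247*) to 1.05 (*Cd3e*) with adjusted p of 0.171 to 0.555. IgGL replicate 1 was picked out by these same levels, so leaving it out favours higher estimates in LepL. Without it, *Trbc1* was higher by 1.66 (adjusted p = 0.00363), *Cd3g* by 1.68 (adjusted p = 0.00751) and *Trbc2* by 1.40 (adjusted p = 0.0114) in edgeR's test. *Cd3e* was then higher by 1.73 (adjusted p = 0.0115) and *Cd247* by 1.03 (adjusted p = 0.0285), in the same test. No chain was called when any other lung library was left out instead.

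The surface and signaling genes ranged more widely. *Cd4* measured 9.22, 4.78 and 2.36 CPM in IgGL and 12.1, 5.61 and 6.32 in LepL, *Cd8a* 7.26, 1.61 and 2.59 and 12.6, 6.22 and 6.88, and *Cd8b1* 4.49, 1.22 and 1.66 and 6.92, 2.37 and 4.46. Without IgGL replicate 1, *Cd8a* was higher by 2.03 (adjusted p = 0.00790), *Cd8b1* by 1.67 (adjusted p = 0.0321) and *Cd2* by 1.46 (adjusted p = 0.00526), and the *Cd4* estimate was 1.16 (adjusted p = 0.0753, not called) in edgeR's test. *Cd2* measured 9.14, 5.28 and 4.52 CPM in IgGL and 17.6, 11.5 and 11.4 in LepL, with no overlap (log2 fold change 1.10 ± 0.30, adjusted p = 0.0656). *Cd5* measured 4.96, 2.36 and 1.03 and 5.91, 2.92 and 3.68 CPM, and *Cd6* 5.07, 2.92 and 1.197 and 4.57, 3.65 and 4.38 CPM, both overlapping. *Lck* measured 13.4, 6.14 and 6.75 CPM in IgGL and 18.6, 11.4 and 13.6 in LepL, *Zap70* 7.67, 4.36 and 4.06 and 8.69, 7.07 and 7.71, and *Lat* 12.3, 4.25 and 5.55 and 13.3, 7.39 and 9.397. In all 3, IgGL replicate 1 was the 1 library of its group within the LepL range, and all 3 rose without it, by 0.89 (*Zap70*) to 1.17 (*Lck*).

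*Il7r* and *Thy1*, which fell in kidney, overlapped between the lung groups when all libraries were kept. *Il7r* measured 26.6, 22.3 and 15.03 CPM in IgGL and 24.03, 21.4 and 12.8 in LepL (log2 fold change -0.14 ± 0.27, adjusted p = 0.774). *Thy1* measured 36.3, 16.2 and 14.1 CPM in IgGL and 31.8, 23.4 and 20.6 in LepL (log2 fold change 0.18 ± 0.34, adjusted p = 0.763). With IgGL replicate 1 left out, *Thy1* lay apart and rose by 0.74 (adjusted p = 0.0290 in edgeR's test), while *Il7r* was at 0.052 (adjusted p = 0.913). *Ctla4* measured 3.795, 5.75 and 3.36 CPM in IgGL and 5.42, 2.42 and 1.51 in LepL, and together with *Il7r* it was a member with a negative estimate (-0.47 ± 0.45). *Cd28* measured 3.24, 1.92 and 2.16 and 4.64, 3.45 and 2.87 CPM and *Icos* 5.51, 3.19 and 2.36 and 6.27, 5.52 and 4.31 CPM, both overlapping, and *Icos* rose by 0.94 (adjusted p = 0.0448 in edgeR's test) when IgGL replicate 1 was left out. As a percentage of the T cell receptor and CD3 sum of the same library, *Gzma* was 7.62, 7.54 and 11.5% in IgGL and 14.1, 22.8 and 37.5% in LepL, and *Cd8a* 13.2, 7.68 and 13.6% and 17.6, 14.96 and 15.8%. On that scale *Cd8a*, *Gzma*, *Nkg7*, *Ifng* and *Ncr1* were higher and *Thy1* and *Cd247* lower in every LepL library, with 27 members overlapping. *Cd247* is itself part of the sum, and the share of all genes lying apart on that scale was not counted.

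In the same lungs, 5 of 8 fibroblast markers and 4 of 12 macrophage markers fell, and none of the 6 pan-leukocyte genes passed the test in edgeR. The macrophage sum was 4391 to 7145 CPM in IgGL and 8352 to 8651 in LepL, while 11 of the 12 single genes had negative estimates and *Lyz2*, the lysozyme gene, named here after its values were seen, a positive one (0.98). The 8 B cell markers all had positive estimates (median 1.05) with none called, and summed to 135, 38.5 and 61.4 CPM in IgGL and 233, 101 and 136 in LepL. IgGL replicate 1 was picked out in part by this B cell sum, so leaving it out favours a rise of the B cell markers in LepL. The fit without it called 9.48% of all genes higher and 7.84% lower. In that fit 7 of the 8 B cell markers rose (median 1.63), 9 macrophage markers fell and *Lyz2* rose. There 5 fibroblast markers fell, and the pan-leukocyte genes *Ptprc* and *Cd48*, named after their values were seen, rose. Their part in the member levels was not tested.

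The last comparison set the difference that LepAb made in kidney against the difference it made in lung, in 1 fit of the 12 injured libraries, where organ, injury and day of euthanasia cannot be told apart. All 34 members had a more negative estimate in kidney, with a median difference of -1.23 on the log2 scale against -0.0073 over all genes, of which 49.5% were positive. *Klrb1c* was the 1 member called (2.94%), where 3.62% of all 21488 genes were called lower and 7.12% in all at an adjusted p under 0.05. Its difference was -1.95 ± 0.54 (adjusted p = 0.0466), beside -1.10 ± 0.56 in kidney and 0.88 ± 0.29 in lung, neither called on its own. The call was lost in 10 of the 12 fits that left out 1 library (adjusted p 0.0575 to 0.114). At an unadjusted p under 0.05, 18 members were lower and none higher, where 25.4% of all genes reached that p in either direction. Lists of other genes were set beside them. All 8 B cell markers had a more negative estimate in kidney (median -1.03), as had all 6 pan-leukocyte genes (median -0.96) and 8 of 12 macrophage markers (median -0.33). So had 5 of the 8 fibroblast markers, which are no leukocyte genes (median -0.33, 1 called lower). In the leukocyte lists, 4 pan-leukocyte genes (*Ptprc*, *Cd52*, *Cd53* and *Cd48*) and the macrophage markers *Lyz2* and *Ccr2* were called lower. No B cell marker was called by edgeR, although *Ms4a1* and *Blk* had an unadjusted p under 0.05. The other lists are given by their counts. The part of these lists in the member differences was not tested.

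*Gzma* (log2 difference -2.96 ± 0.87, adjusted p = 0.05703), *Nkg7* (log2 difference -1.62 ± 0.48, adjusted p = 0.05703), *Gata3* (log2 difference -1.08 ± 0.33, adjusted p = 0.06304) and *Il7r* (log2 difference -1.33 ± 0.41, adjusted p = 0.0658) came next by p and did not pass. *Gzma* had 2.17 ± 0.38 in lung and -0.83 ± 0.73 in kidney. *Il7r* had -1.50 ± 0.28 in kidney and -0.14 ± 0.27 in lung. Estimates were negative in kidney and positive in lung for 26 members, negative in both for 2 (*Il7r* and *Ctla4*) and positive in both for 5, and *Ifng* was not tested in lung. Without IgGL replicate 1, 21 members were called (8.56% of all genes were called lower, 16.9% in all), among them 6 of 7 T cell receptor and CD3 genes and all 3 signaling genes. As in lung, that library was chosen by the members' own levels, which favours such calls.

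**Figure D5:**
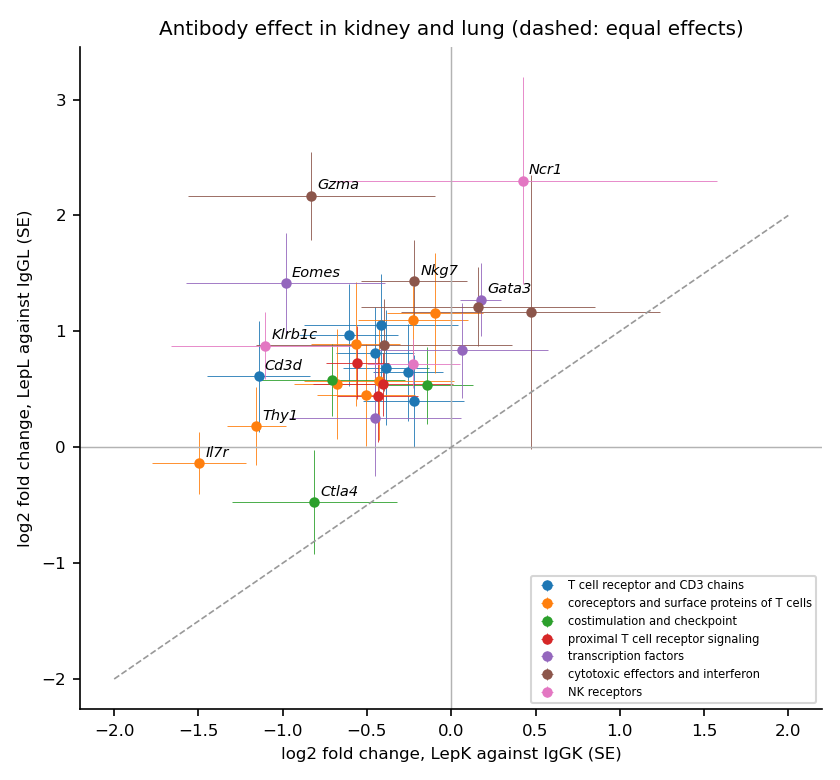
Log2 fold change of LepL against IgGL (vertical) against that of LepK against IgGK (horizontal) for the 33 members tested in both organs, with standard errors, coloured by role; the dashed line marks equal effects. All points lie above the dashed line, most of them left of 0 in kidney and above 0 in lung, with *Gzma* and *Ncr1* highest in lung and *Il7r* furthest left in kidney.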

How the data were processed

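RNA of mouse kidney (9 libraries) and lung (6 libraries) was sequenced after poly(A) selection, without strand information. The deposited table holds whole-number read counts per gene, which the authors did not normalize, and FPKM values that the authors derived from them per kilobase of gene length. It also holds fold changes and p-values of the authors' own comparisons, which were not used. The submitters' processing notes name GRCm39 and DESeq2. The aligner, the counting tool and the annotation are not given in the sources used here. Groups were taken from the titles, since a further description line disagrees with them for the lung libraries.

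Counts were analysed with edgeR 4.0.16 in R 4.3.3 (filterByExpr with minimum count 10 and minimum total count 15, TMM factors, glmQLFit, glmQLFTest), in 1 fit for the 9 kidney libraries, 1 for the 6 lung libraries and 1 for the 12 libraries of injured organs. Called genes had a log2 fold change beyond ±0.5 together with a p below 0.05 after Benjamini-Hochberg adjustment over all genes tested. For kidney minus lung the adjusted p alone was used. The kidney and lung fits were tried on simulated counts with 1 common spread, no outlying library and changes only in genes with more reads. That trial does not cover genes with few reads or a library that stands apart. Errors are SE for fold changes and SD over 3 libraries for levels. Alternatives were other scalings, other filters on low counts, DESeq2 1.42.0, a replicate block, other sets of groups in the fit and leaving out each library.

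Values in every library are given for members called in IgGK against WTK, LepK against IgGK or LepL against IgGL and for *Cd3e*, *Cd4* and *Cd8a*, and for further members where their groups lay apart. The members and the lists of other genes (40 further T and NK genes, 12 macrophage, 8 B cell, 8 fibroblast, 6 pan-leukocyte, 10 distal nephron, 6 group 2 innate lymphoid and 4 lymphoid tissue genes) were chosen with earlier results of these data known. At most the pair of called genes with the largest changes in each direction is named from each list, beside those said to be chosen after their values were seen. A further result on the T and NK genes that are no members is not reported here. Promoter sequences are those of RefSeq (GRCm38.p6) and were matched by symbol. Counting error at low counts limits the precision of the cytotoxic and NK genes.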

Additional observations from a re-analysis of the deposited data

Results flagged for a closer look

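*Klrb1c*, which encodes the NK1.1 antigen, was called in the test of the difference between the antibody effects in the 2 organs. It was the 1 member called of 34 (2.94%), where 3.62% of all genes were called lower. LepK kidneys measured 0.296, 0.201 and 0.295 CPM against 0.330, 0.6002 and 0.780 in IgGK, and LepL lungs 2.38, 2.80 and 3.02 CPM against 1.41, 1.31 and 1.76 in IgGL. The log2 difference, kidney minus lung, was -1.95 ± 0.54 (edgeR's quasi-likelihood test, adjusted p = 0.0466), with 6 to 27 reads per library in the injured kidneys. Organ, injury and day of euthanasia cannot be told apart, and the call was kept in 2 of the 12 fits without 1 library, those without IgGK replicate 1 and without IgGL replicate 1. Over all 18 alternative settings the call was kept in 6. With no filter on low counts or with the replicate block it was lost.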

How the results depend on the processing

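The estimates of all members called in the main fits kept their sign under every alternative run for them. In IgGK against WTK (25 members called) and LepK against WTK (23) the count stayed within 1.5 times of the main one throughout, and without 1 library it was 23 to 26 and 21 to 26. In LepK against IgGK (3 members called lower) it was 5 with library-size scaling, with no filter on low counts and with DESeq2 (11.2%, 4.44% and 7.03% of all genes called lower, against 5.99%), where *Lck* and *Cd4* were added, and 2 to 4 without 1 library (3.47% to 6.28%). In LepL against IgGL (1 called higher) it was 12 with no filter on low counts, 4 with lung and injured kidney in 1 fit, 7 with DESeq2 (4.32%, 4.97% and 6.47% of all genes called higher, against 1.78%) and 0 to 20 without 1 library (0% to 9.48%, with 20 members without IgGL replicate 1). In kidney minus lung (1 called lower) it was 7 with library-size scaling, 11 with no filter, 2 with a mean of at least 1 CPM (9.16%, 4.19% and 5.89% of all genes called lower, against 3.62%) and 0 to 21 without 1 library (0.874% to 8.56%, with 21 members without IgGL replicate 1). In the edgeR fits without 1 library that called no member, 7 to 14 members in lung and 13 to 19 in kidney minus lung had an unadjusted p under 0.05. The share of all genes at that p was not counted in these fits. The cause of these shifts was not tested.

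Libraries share replicate numbers across groups. For LepK with IgGK, deviations from the group means of the same number correlated at r = 0.261, 0.242 and -0.0521, and those of different numbers at -0.295 to 0.0646. For LepL with IgGL the same numbers gave -0.0668, 0.14 and -0.121, and different numbers -0.112 to 0.186. Replicates 1 and 2 of the injured kidneys thus went together by number, and replicate 3 and the lungs did not. Whether equal numbers mark a shared batch is not known. With the replicate block, 5 members were called in LepK against IgGK, 0 in LepL against IgGL and 0 in kidney minus lung (6.31% of all genes lower, 0.0051% higher and 2.5% lower), where 20 and 17 members had an unadjusted p under 0.05 in the lung and kidney minus lung fits. The block left 26 and 25 members called in IgGK and LepK against WTK.

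With 0 to 20 reads in many libraries, *Gzmk*, *Ifng* and *Ncr1* are limited by depth.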

Other observations

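Genes of group 2 innate lymphoid cells and of lymphoid tissue were measured in the same libraries. Of 6 group 2 genes, 4 were tested in kidney, and from WTK to IgGK 3 rose, among them *Il1rl1*, the receptor of interleukin 33 (log2 fold change 3.33, adjusted p = 4.91e-05), and *Areg*, the growth factor amphiregulin (3.07, adjusted p = 0.00921), while *Rora* fell by 0.60. None was called by edgeR in LepK against IgGK or LepL against IgGL. The other list held 4 genes of lymph nodes and tertiary lymphoid tissue, all of them chemokines but *Ltb*, which encodes lymphotoxin beta. From WTK to IgGK, *Ltb* rose (2.94, adjusted p = 7.96e-05), as did the chemokine *Ccl21a* (0.70, adjusted p = 0.00516). None of the 4 was called by edgeR in the other 2 comparisons. In lung without IgGL replicate 1, *Areg* and *Cxcl13* were called lower and *Ltb* higher, all 3 named after their values were seen. That fit called 7.84% of all genes lower and 9.48% higher.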
